A study of Mus musculus with 8 samples.

Results

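Wnt proteins are secreted, lipid-modified ligands that bind Frizzled receptors. Through Frizzled and Lrp co-receptors some of them stabilise beta-catenin, which acts with TCF/LEF factors on target genes, and others act mainly on cell polarity and movement without beta-catenin. R-spondins are secreted proteins that raise the response to Wnt by keeping the ubiquitin ligases Rnf43 and Znrf3 from removing Frizzled. In the posterior end of the mouse embryo, Wnt3a maintains the progenitors that lengthen the trunk and tail, and Cdx genes are known as targets of this signal.

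The genes described here are 8 secreted factors of this pathway: the beta-catenin type ligands Wnt3, Wnt3a and Wnt8a, the ligands Wnt5a, Wnt5b and Wnt11, best known for acting on cell movement, the epithelial ligand Wnt6, and the R-spondin Rspo3. They were taken by gene name, with every non-control probe that carries the name, which gave 12 probes. They are 8 of 28307 genes on the array. Wnt3, Wnt5b, Wnt6 and Rspo3 had more than 1 probe each, and for them the brighter probe is called the first and the other the second. Of the 12 probes, 11 passed the limit on dim values (a signal well above background for 1 of the genotypes on 3 or 4 arrays of some stage), and the second probe of Rspo3 did not.

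RNA came from the posterior part of embryos of the strain C57Bl6J/CBA, of the genotypes Cdx2 null mutant and wild type, at 4/5 and at 7/8 somites. The tissue lay between the youngest somite border and the base of the allantois, so that both genotypes were cut at equal axial levels. For each genotype and stage 20 embryos gave 1 pool of RNA. The pools of a stage were hybridized against each other on 4 arrays, with the null pool in Cy3 on arrays 1 and 3 and in Cy5 on arrays 2 and 4, and arrays 3 and 4 were a technical repeat on another slide. A standard deviation over the 4 arrays of a stage is therefore technical, and only the 2 stages are separate pools. Whether a pool holds fewer cells of a type or less RNA per cell cannot be told apart in such tissue.

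Cdx2 itself, the homeodomain factor that the mutants lack, had a mean log2 ratio of null over wild type of -1.23 at 4/5 and -1.55 at 7/8 somites, lower in the null pools on all 8 arrays. Its probe was still well above background in the null pools on all 4 arrays of each stage. Per channel, 46.5% to 58.9% of probes were well above background, and no non-control spot was saturated. Across probes, log2 ratios correlated within a stage at 0.856 to 0.918 where arrays shared the dye order and at 0.477 to 0.517 where they did not. Between the stages, which share no pool, the values were 0.498 to 0.591 with the dye order shared and 0.235 to 0.307 with it swapped. Sharing the dye order thus went with at least as close a likeness as sharing the pools did. These are descriptions over probes, which are not independent. Of all kept probes, 8.19% passed the test over both stages (adjusted p at most 0.05, limma with Benjamini-Hochberg adjustment), 4.81% higher and 3.38% lower in the null pools.

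The probes are 60 bases long, and 3 of them are shown because they set what was measured: the probes of Wnt5a and Rspo3 each span more of the genome than their own length, so each is joined from separate stretches of it, and the second probe of Wnt5b lies upstream in the transcript of the first, at a separate place.
Wnt5b second probe (mm9, chr6:119390320-119390379, minus strand): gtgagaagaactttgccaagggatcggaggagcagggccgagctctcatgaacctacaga
Wnt5a probe (mm9, chr14:29331746-29335708, plus strand): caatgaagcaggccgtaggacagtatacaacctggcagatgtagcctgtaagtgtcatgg
Rspo3 first probe (mm9, chr10:29224509-29226228, minus strand): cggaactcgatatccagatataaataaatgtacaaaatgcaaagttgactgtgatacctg

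Promoter windows (250 bases before to 50 after a start site, RefSeq, GRCm38.p6) were at hand for 5 of the 8 genes, as 8 windows. They were searched on both strands for TTTATG and TTTATA, letters that caudal-type homeodomain proteins such as Cdx2 bind, and for CTTTGAT and CTTTGTT, letters bound by TCF/LEF factors. The searched letters do not overlap one another in these windows. Over all 32851 windows of this length, 22.8% hold a caudal-type match, 9.33% a TCF/LEF match and 2.97% both. Of the members' windows, 2 hold a caudal-type match, 3 a TCF/LEF match and 2 both kinds, namely window 3 of Wnt5b and window 1 of Wnt11. Windows 1 and 2 of Wnt5b hold neither kind. The bases before the start are shown for these 2 windows with both kinds, picked for their matches, and for the only Wnt6 window. Wnt5b and Wnt6 are the members called below, and Wnt11 was not called. Capitals mark matches.
Wnt5b window 3 (GRCm38.p6, chr6:119449387-119449636, minus strand): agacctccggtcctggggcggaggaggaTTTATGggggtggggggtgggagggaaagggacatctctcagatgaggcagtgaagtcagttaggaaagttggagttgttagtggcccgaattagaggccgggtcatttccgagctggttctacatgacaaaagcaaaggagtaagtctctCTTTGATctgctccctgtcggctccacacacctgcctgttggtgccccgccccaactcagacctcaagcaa
Wnt11 window 1 (GRCm38.p6, chr7:98834862-98835111, plus strand): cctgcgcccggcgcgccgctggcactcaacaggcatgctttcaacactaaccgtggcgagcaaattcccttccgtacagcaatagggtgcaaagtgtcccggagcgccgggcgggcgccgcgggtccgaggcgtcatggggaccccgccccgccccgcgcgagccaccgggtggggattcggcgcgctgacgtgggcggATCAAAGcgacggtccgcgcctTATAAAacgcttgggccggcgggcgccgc
Wnt6 window (GRCm38.p6, chr1:74771642-74771891, plus strand): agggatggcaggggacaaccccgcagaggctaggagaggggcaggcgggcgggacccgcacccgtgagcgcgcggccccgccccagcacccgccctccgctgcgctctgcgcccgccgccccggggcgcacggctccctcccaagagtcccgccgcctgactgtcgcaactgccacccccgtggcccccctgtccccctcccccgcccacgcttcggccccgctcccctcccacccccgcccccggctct

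In window 3 of Wnt5b the caudal-type letters begin at position -222 and the TCF/LEF letters at -71, counted from the start site. In the Wnt11 window the TCF/LEF letters begin at -51 and TATAAA at -29, where a TATA box usually lies, so that this match has the letters of a TATA box. The Wnt6 window holds neither kind, and the window of Wnt3, which encodes a ligand of early gastrulation, holds CTTTGTT at position 19. A match is letters only, and binding was not measured.

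The first question was which of these ligands had a different level in the null pools over the 2 stages as a whole. Wnt5b was lower and Wnt6 was higher in the null pools, each on both of its probes, so that 4 of the 11 kept probes and 2 of the 8 genes were called, 2 probes up and 2 down. With 1 probe per gene, 11.1% of all genes were called. The other 6 genes did not pass, with mean log2 ratios of their first probes between -0.26 and 0.13. Each mean below is that of the 2 stage means, and its standard error (SE) is that of the fit across all kept probes.

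**Figure D1:**
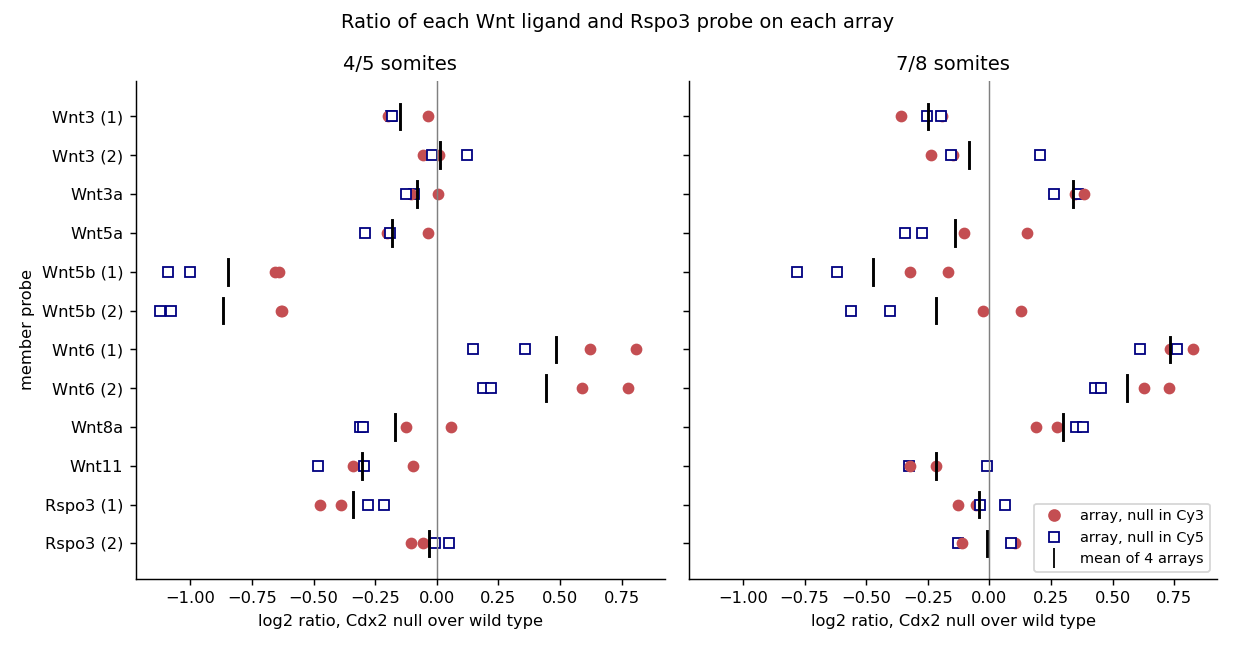
Log2 ratio of Cdx2 null over wild type (horizontal axis) for each of the 12 probes (vertical axis) at 4/5 somites and at 7/8 somites. Each circle is an array with the null pool in Cy3, each square an array with it in Cy5, and the bar is the mean of 4 arrays; Wnt5b lies below 0 and Wnt6 above it, and both shift with dye order.

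Wnt5b, a ligand that acts on cell movement, had first-probe log2 ratios of -0.66, -1.001, -0.64 and -1.09 on arrays 1 to 4 at 4/5 somites. At 7/8 somites the first-probe ratios were -0.32, -0.62, -0.17 and -0.78. All 8 arrays were below 0, and the arrays of the stages overlapped. Over both stages this probe fell by 0.66 on the log2 scale, 1.58-fold (SE 0.10, n = 2 stages, limma adjusted p = 0.000415). Its position is chr6:119383012-119383071 (mm9, minus strand). On the 4 arrays with the null pool in Cy3 alone, its mean was -0.45 (adjusted p = 0.0644), which ended the call.

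The second probe of Wnt5b fell by 0.54 (SE 0.12, n = 2 stages, limma adjusted p = 0.00944). Its log2 ratios were -0.63, -1.08, -0.63 and -1.12 at 4/5 somites. At 7/8 somites they were 0.13, -0.56, -0.03 and -0.40. The ratio was thus negative on 7 of 8 arrays, and the arrays of the stages did not overlap, with the smaller difference at 7/8 somites. This call was lost in 11 of 21 other settings, among them the removal of array 2 or 4 of either stage (adjusted p from 0.0673 to 0.114). With these arrays left out the mean ratio was -0.51 to -0.48, close to the -0.54 of all arrays.

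Dye order moved both Wnt5b probes. With the null pool in Cy3 the first probe averaged -0.65 at 4/5 and -0.25 at 7/8 somites, and with it in Cy5 the averages were -1.05 and -0.70. Its sign was the same in both orders at both stages. The second probe, with the null pool in Cy3, averaged -0.63 at 4/5 and 0.05 at 7/8 somites, so at 7/8 somites the sign differed from the Cy5 order, which gave -0.48.

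In levels, the null pools held less Wnt5b signal at both stages on the first probe. Its log2 level averaged 11.38 ± 0.19 (SD of 4 arrays) in null and 12.23 ± 0.11 in wild type at 4/5 somites, and 11.79 ± 0.11 in null and 12.26 ± 0.20 in wild type at 7/8 somites. From high to low the pools stood as wild type at 7/8, wild type at 4/5, null at 7/8 and null at 4/5 somites. The wild type levels overlapped, and the others were apart from their neighbours. Between the stages the level rose by 0.41 in null with arrays apart, and the change in wild type was 0.03 with arrays overlapping. The second probe gave 0.49 in null with arrays apart and -0.16 in wild type with arrays overlapping.

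Wnt6, a ligand of the surface ectoderm, had first-probe log2 ratios of 0.81, 0.15, 0.62 and 0.36 at 4/5 somites. At 7/8 somites the first-probe ratios were 0.83, 0.61, 0.73 and 0.76. All 8 arrays were above 0. The probe rose by 0.61 on the log2 scale, 1.52-fold (SE 0.09, n = 2 stages, limma adjusted p = 0.000444), and it lies at chr1:74831461-74831520 (mm9, plus strand). The second probe, designed to another transcript record and lying close by at chr1:74831361-74831426, rose by 0.50 (SE 0.09, limma adjusted p = 0.00144), also on all 8 arrays. At 4/5 somites the second-probe ratios were 0.78, 0.19, 0.59 and 0.22, and at 7/8 somites 0.73, 0.43, 0.63 and 0.45.

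The difference in Wnt6 was larger with the null pool in Cy3, the reverse of Wnt5b. At 4/5 somites the first probe averaged 0.71 in that order and 0.25 in the other, and at 7/8 somites 0.78 and 0.69. On the arrays with the null pool in Cy5 alone, the second probe averaged 0.32 over both stages and was not called (adjusted p = 0.0814).

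Log2 levels of Wnt6 on the first probe averaged 12.002 ± 0.17 in null and 11.52 ± 0.13 in wild type at 4/5 somites, and 12.47 ± 0.16 in null and 11.73 ± 0.14 in wild type at 7/8 somites. Null at 7/8 somites stood apart above null at 4/5, and the 3 lower groups overlapped with their neighbours. Between the stages the null level rose by 0.47 with arrays apart, and the wild type change was 0.22 with arrays overlapping. On the second probe the level rose by 0.45 in null and by 0.34 in wild type, both with arrays apart.

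**Figure D2:**
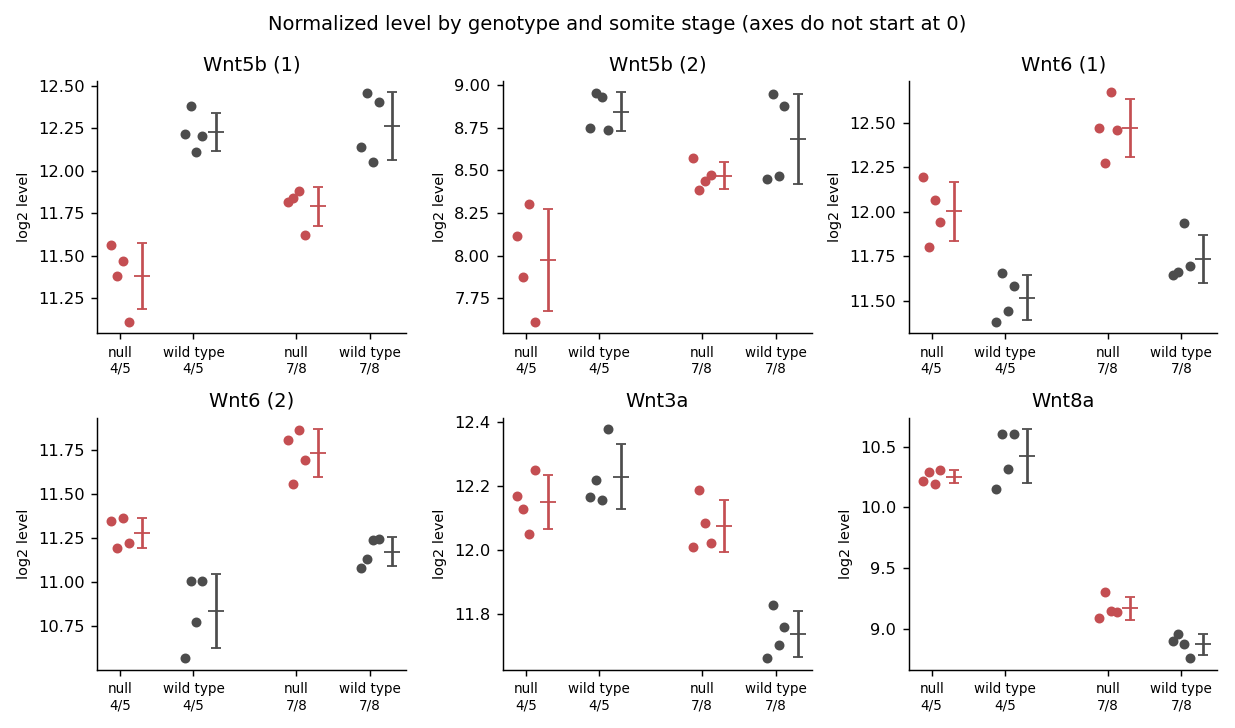
Normalized log2 level (vertical axis, not starting at 0) in null and wild type pools at 4/5 and 7/8 somites for both probes of Wnt5b and Wnt6 and the probes of Wnt3a and Wnt8a. Points are arrays, and the bar beside them is their mean with the SD of 4 arrays; the Wnt8a level is lower at 7/8 somites in both genotypes, and that of Wnt3a is lower in wild type at 7/8 somites.

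Markers of the surface ectoderm, where Wnt6 is expressed, were set beside it. Of 10 measured surface ectoderm markers, 6 rose in the null pools and none fell, with a list median of 0.32 against -0.01 over all genes. This list, like the others, was chosen with earlier results of these data known, so its counts carry no test. The keratin gene Krt5 rose by 0.92 (SE 0.08), Krt18 by 0.52 (SE 0.09) and Epcam, which encodes an epithelial adhesion molecule, by 0.41 (SE 0.09). Among the 4 that did not pass, Trp63 had a log2 ratio of -0.12, lower on all 8 arrays, Cldn6 of -0.12, Tfap2a of 0.0023 and Dlx5 of 0.12. Summed over the 10 markers, the normalized level ranged from 73771 to 81238 in null and from 57974 to 68777 in wild type at 4/5 somites, and from 85315 to 98553 in null and from 58625 to 65231 in wild type at 7/8 somites. The genotypes did not overlap at either stage. Such a sum adds unlogged levels, so that bright probes weigh most in it. The visceral endoderm, gut endoderm and trophoblast lists also had medians above that of all genes, at 0.27, 0.22 and 0.39. The rise was thus not particular to surface ectoderm markers. The part of any of these markers in the Wnt6 result was not tested.

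For Wnt3a, Wnt8a and Wnt3, the ligands of the beta-catenin branch, no difference over both stages passed the test. Wnt3a (probe at chr11:59061659-59061718, mm9, minus strand) had log2 ratios of 0.0031, -0.09, -0.11 and -0.13 at 4/5 somites. At 7/8 somites its ratios were 0.35, 0.36, 0.38 and 0.26. The arrays of the stages did not overlap, and the stage means, -0.08 ± 0.06 and 0.34 ± 0.05 (SD of 4 arrays), partly cancel in the mean of 0.13 (SE 0.10, n = 2 stages, limma adjusted p = 0.531).

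Wnt3a levels were then compared between the pools, across arrays and without a test. The log2 level averaged 12.15 ± 0.08 in null and 12.23 ± 0.10 in wild type at 4/5 somites, and 12.08 ± 0.08 in null and 11.74 ± 0.07 in wild type at 7/8 somites. In order from high to low, wild type at 4/5, null at 4/5 and null at 7/8 somites each overlapped with the next, and wild type at 7/8 somites stood apart below them. Between the stages the level fell by 0.49 in wild type with arrays apart and changed by -0.07 in null with arrays overlapping. The wild type change was -0.45 on slide 1 and -0.54 on slide 2.

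Wnt8a, a ligand of the primitive streak, was measured well above background in every channel. Its log2 ratios were 0.06, -0.31, -0.12 and -0.30 at 4/5 somites. At 7/8 somites they were 0.19, 0.35, 0.28 and 0.38. The arrays of the stages did not overlap, and the mean was 0.07 (SE 0.10, n = 2 stages, limma adjusted p = 0.815).

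The level of Wnt8a differed more between stages than between genotypes. It averaged 10.25 ± 0.06 in null and 10.42 ± 0.22 in wild type at 4/5 somites, and 9.17 ± 0.09 in null and 8.87 ± 0.08 in wild type at 7/8 somites. The level was 2.12-fold lower at 7/8 than at 4/5 somites in null and 2.93-fold lower in wild type, with the arrays of the stages apart in both. With 1 pool per genotype and stage these changes have no test. Wnt8a was the only member with a level at least 2-fold apart between stages and no overlap of arrays, a size that 0.233% of kept probes reached in null and 0.192% in wild type. Without scaling between arrays, where the median of all kept probes shifted by 0.11 in null, the Wnt8a level changed by -0.97 on the log2 scale in null, just under 2-fold, and by -1.43 in wild type. With processed signals scaled to the 75th percentile the changes were -1.27 in null and -1.82 in wild type, and the first Rspo3 probe then changed by -1.12 in wild type.

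Over all members, 4 kept probes had stage arrays that did not overlap, and in all 4 the ratio was higher at 7/8 somites: Wnt3a, Wnt8a, the second probe of Wnt5b and the first of Rspo3. Among all kept probes, 10.4% had such a higher ratio at 7/8 somites and 7.98% such a lower one, and the members' count has no test. The Rspo3 probe entered this count only because wild type at 4/5 somites, its brightest group, passed the limit on dim values. No member had stage means at least 2-fold apart (0.0639% of kept probes with no overlap of arrays did). Within a stage no member probe differed 2-fold or more with 1 sign on its 4 arrays, as 0.292% of kept probes did at 4/5 and 0.415% at 7/8 somites. From the scanner's processed signals, the second Wnt5b probe averaged -1.05 at 4/5 somites, beyond 2-fold.

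Markers of the caudal progenitors and their mesoderm also had lower ratios at 4/5 than at 7/8 somites by their medians. Of 10 axial progenitor and tail bud markers 5 fell over both stages and none rose, and of 7 presomitic mesoderm markers 2 fell and 1 rose. The median of the progenitor list was -0.35 at 4/5 and 0.06 at 7/8 somites, and that of the presomitic list -0.35 and -0.11. Such a shift was not particular to these 2 lists. The medians were 0.11 and 0.40 for allantois markers and -0.24 and -0.05 for node and notochord markers. Those of the endothelial, neural, visceral endoderm, Wnt receptor and Wnt inhibitor lists were lower at 7/8 somites, and those of all other lists higher. The summed level of the progenitor markers ranged from 20866 to 22376 in null and from 28027 to 29822 in wild type at 4/5 somites, and from 26235 to 28999 in null and from 25019 to 27504 in wild type at 7/8 somites. The genotypes were apart at 4/5 and overlapped at 7/8 somites. The part of these markers in the stage differences of Wnt3a, Wnt8a, Wnt5b and Rspo3 was not tested.

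Wnt3 was lower in the null pools on all 8 arrays of its first probe (chr11:103677409-103677468, mm9, plus strand), with means of -0.15 ± 0.08 at 4/5 and -0.25 ± 0.08 at 7/8 somites. The mean of -0.20 (SE 0.08, n = 2 stages) did not pass the limma test (adjusted p = 0.181). The second, dimmer probe read -0.03. In wild type the first-probe level was higher at 7/8 than at 4/5 somites by 0.28 with arrays apart, and in null by 0.18 with arrays overlapping.

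Wnt11, which acts on cell movement (probe at chr7:106001985-106002045, mm9, plus strand), was lower on all 8 arrays as well. Its log2 ratios were -0.34, -0.48, -0.10 and -0.29 at 4/5 somites, and -0.22, -0.32, -0.32 and -0.01 at 7/8 somites. The mean of -0.26 (SE 0.08, n = 2 stages) did not pass the limma test (adjusted p = 0.0751), and the 4 levels overlapped in order. Wnt5a, the close relative of Wnt5b, had a mean of -0.16 (SE 0.08, limma adjusted p = 0.304), negative on 7 of 8 arrays. It was dim, well above background in null on 2 of 4 arrays at 4/5 and 3 of 4 at 7/8 somites and in wild type on all 8.

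Rspo3, the R-spondin of the list, was dim. Its first probe was well above background in null on 2 arrays of each stage, and in wild type on 4 arrays at 4/5 and 2 at 7/8 somites, so it was kept through wild type at 4/5 somites alone. Its log2 ratios were -0.47, -0.21, -0.39 and -0.28 at 4/5 somites, and -0.06, -0.04, -0.13 and 0.06 at 7/8 somites. The stages did not overlap, and the mean of -0.19 (SE 0.09, n = 2 stages) did not pass the limma test (adjusted p = 0.261). On array 4 of 7/8 somites its log2 level was 5.85 in null and 5.78 in wild type, against 6.68 to 6.90 in null and 6.72 to 7.03 in wild type on the other arrays of that stage. The second probe, below the limit, read -0.03 at 4/5 and -0.01 at 7/8 somites.

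The values of the dimmer members depended on the processing. From the scanner's processed signals, whose background correction and dye normalization both differ from those used here, 8 member probes were called instead of 4, with the first probes of Wnt3 at -0.47 (adjusted p = 0.0217) and Rspo3 at -0.66 (adjusted p = 0.00413), Wnt5a at -0.56 (adjusted p = 0.00563) and Wnt11 at -0.48 (adjusted p = 0.0225), all by limma. With no background correction and the loess step kept, none of these 4 was called, with -0.14 for Wnt3, -0.14 for Rspo3, -0.11 for Wnt5a and -0.18 for Wnt11. Median centring in place of loess, with the background step kept, gave -0.18 for Wnt3 and -0.24 for Rspo3. It gave -0.17 for Wnt5a and -0.25 for Wnt11, and no probe at all was called. No run paired the scanner's background correction with loess, so which of the 2 steps makes the difference was not tested.

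**Figure D3:**
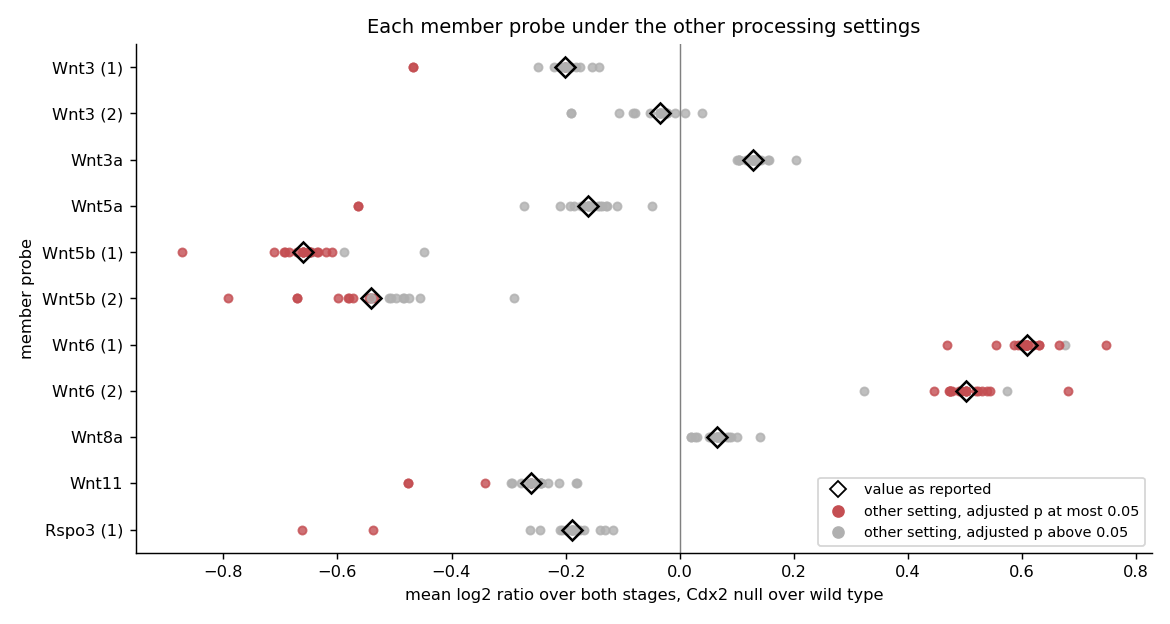
Mean log2 ratio of null over wild type over both stages (horizontal axis) for the 11 kept probes (vertical axis). The diamond is the value as reported and each dot another processing setting, red where the adjusted p was at most 0.05; Wnt5b stayed below and Wnt6 above 0 in every setting run, while the dimmer Wnt3, Wnt5a, Wnt11 and Rspo3 passed in a few.

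The genes most like the called members over the 4 dye swap pair means were named by the smallest root mean square difference in log2 ratio among 12986 named genes. For Wnt6 they were Bicc1, which encodes an RNA-binding protein (0.041, with ratios of 0.52 at 4/5 and 0.76 at 7/8 somites), and Gsn, which encodes the actin-severing protein gelsolin (0.045). For Wnt5b they were Naaa, which encodes a lysosomal amidase (0.042, with -0.87 and -0.42), and Ccno (0.044). The 4 pair means share their pools in pairs, and the likeness is a description.

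Among the other Wnt ligands, 7 of 12 were measured and 1 rose, with a list median of 0.01. Wnt2, a ligand of the allantois and its vessels, rose by 1.12 (SE 0.09, limma adjusted p = 2.00e-09), 2.17-fold, with 1.15 at 4/5 and 1.08 at 7/8 somites. This was a larger ratio than that of any of the 8 members. Of 7 measured allantois markers 3 rose and 2 fell, one of them Cdx2 itself, and their summed level ranged from 7599 to 8488 in null and from 6639 to 7318 in wild type at 4/5 somites, and from 9087 to 9723 in null and from 7075 to 7689 in wild type at 7/8 somites. Their part in the Wnt2 result was not tested. Lists were read from 1 probe per gene, the brightest.

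Components that handle Wnt proteins differed in both directions. Of 6 measured genes of Wnt secretion and processing 2 rose and 1 fell. Porcn, whose product attaches the lipid, rose by 0.34 (SE 0.09) and the glypican gene Gpc4 fell by 0.34 (SE 0.09). The other riser was Notum, at 0.43 (SE 0.10), above 0 on 7 of 8 arrays. The other R-spondins and R-spondin receptors had 2 rises and 1 fall among 6 measured. Rnf43 had a log2 ratio of -0.91 (SE 0.09) and its relative Znrf3 one of 0.36 (SE 0.08), and Rspo1 rose by 0.28 (SE 0.09, adjusted p = 0.0467).

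Of 13 measured Wnt receptors and co-receptors 3 rose and 2 fell, with a list median of 0.05. The receptor genes Fzd7 and Fzd4 rose by 0.89 (SE 0.09) and 0.59 (SE 0.09). Ptk7, which encodes a co-receptor of the polarity branch, fell by 0.69 (SE 0.08), and Lrp5, a co-receptor of the beta-catenin branch, by 0.49 (SE 0.11). Of 11 measured genes of a list of Wnt inhibitors, whose action on Wnt was not measured here, 3 rose and 1 fell. Dkk3 was at 0.72 (SE 0.09), Dkk1, above 0 on 7 of 8 arrays, at 0.42 (SE 0.08) and Frzb, which encodes a Frizzled-related decoy, at -0.78 (SE 0.09). Cer1, which also stands in the gut endoderm list, was at 0.95 (SE 0.15), with 1.53 at 4/5 and 0.37 at 7/8 somites. Its wild type signal at 7/8 somites was well above background on 2 of 4 arrays.

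Of 16 measured genes of the beta-catenin core 1 rose and 1 fell, with Tcf7l2 at 0.28 (SE 0.09, limma adjusted p = 0.036). Of 9 planar polarity genes 2 fell and none rose, Vangl2 by 0.31 (SE 0.08) and Celsr1 by 0.30 (SE 0.08). Of 14 Wnt targets of the caudal embryo 1 rose and 3 fell. Nkd1, a feedback inhibitor, rose by 0.73 (SE 0.09), while Cdx4 fell by 0.74 (SE 0.09) and Msgn1, a regulator of presomitic mesoderm, by 0.60 (SE 0.10). The target list had a median of -0.16 at 4/5 and 0.15 at 7/8 somites. Several of its genes, Msgn1 among them, also stand in the axial progenitor or presomitic lists, so these medians are not separate observations.

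**Figure D4:**
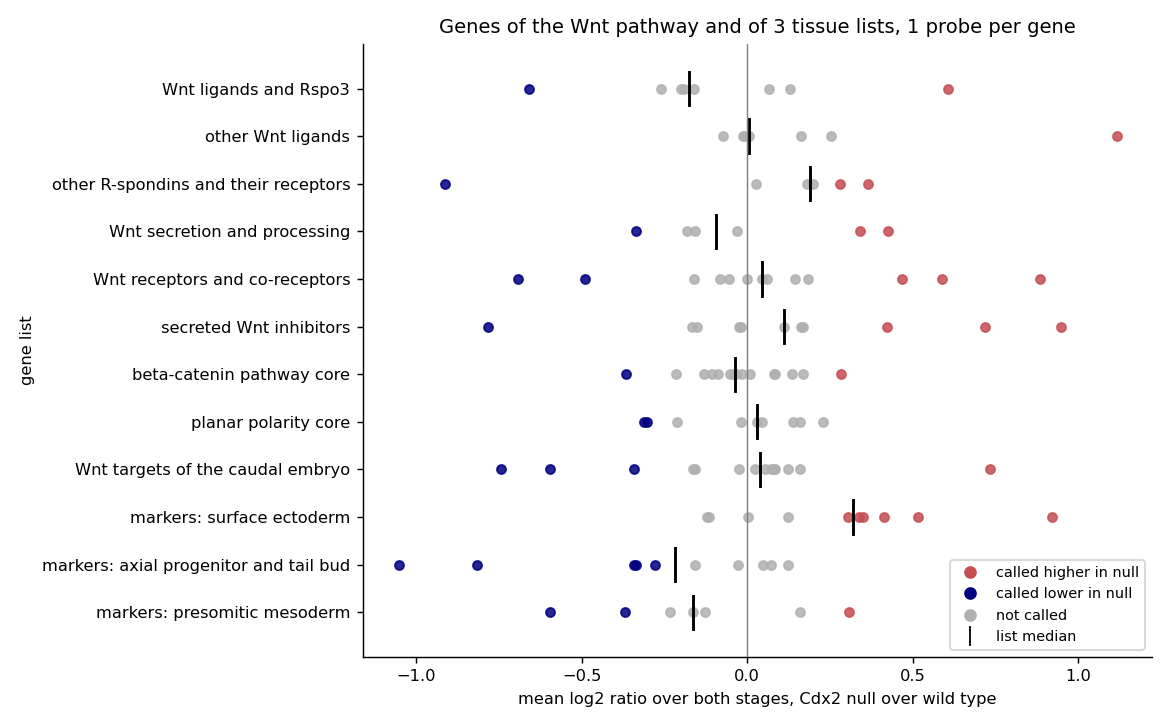
Mean log2 ratio of null over wild type over both stages (horizontal axis) for each measured gene of the Wnt lists and of the surface ectoderm, axial progenitor and presomitic lists (vertical axis). Red genes were called higher, blue genes lower and grey genes were not called, and the bar is the list median; the median is 0.32 for surface ectoderm and -0.22 for axial progenitors.

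Markers of other tissues that the dissected piece could hold also differed. Of 10 visceral endoderm markers 5 rose and none fell, of 8 gut endoderm markers 4 rose and 1 fell, and of 6 trophoblast markers 3 rose and 1 fell. Of 9 endothelial markers 1 rose and 4 fell, of 8 node and notochord markers 1 rose and 3 fell, and of 5 neural markers 1 rose. The summed visceral endoderm level ranged from 50635 to 55173 in null and from 32922 to 36091 in wild type at 4/5 somites, and from 30126 to 31518 in null and from 21426 to 22173 in wild type at 7/8 somites. Their part in the members' values was not tested.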

How the data were processed

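The deposited scanner files hold intensity values per spot and channel (mean signal, local background and a processed signal), per the file headers, and a log10 ratio of Cy5 over Cy3 computed by the authors' scanner software. The scanner software was Agilent Feature Extraction, version 9.5.3 per the submitters' processing notes and 10.5.1.1 per the file headers. The deposited series matrix equalled that log10 ratio at 45018 of 45018 spots on each array (tolerance 1e-05), turned to null over wild type, with column medians of 0. Processed signals and matrix served as alternatives.

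From the mean signals, background was corrected with normexp (offset 50; 282 spot backgrounds marked as uneven took the array median) and dyes were normalized by loess within arrays, control spots at weight 0, in limma 3.58.1 (R 4.3.3). Outlier spots were left out (0.341%), and none was a member's. Direction came from each channel's labelled genotype. Levels are log2 channel values after loess and Aquantile. Of 41174 probes 21907 were kept. The 4 arrays of a stage share their pools and were averaged, and limma tested the 2 stage means against 0 over all kept probes (1 residual and 14.02 prior degrees of freedom, prior SD 0.123, so that a spread common to all probes carries most of the weight), with Benjamini-Hochberg adjustment, two-sided. The p-values rest on the spread between the 2 stage means, in which stage and pool cannot be told apart. The fit was tested on simulated data drawn from its own prior, without dye effects, which cannot show whether its p-values hold for these pools. Lists used the brightest kept probe per gene, adjusted over 15490 genes. Within a stage there is no test. The number of pools and arrays limits the precision.

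Every probe of the 8 genes was named, up to 4 called genes with the same sign on 8 arrays per other list, the 2 genes most like each called member, and Cdx2. Notum and Dkk1, called with 7 of 8 arrays above 0, and the surface ectoderm markers not called were named as well. The members and lists were chosen with earlier results of these data known. Probe positions are on mm9, as the files give them, and promoter windows on GRCm38.p6 from RefSeq.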

Additional observations from a re-analysis of the deposited data

Results flagged for a closer look

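Of 72 groups of 4 arrays (12 probes, by ratio, null level and wild type level at each stage), 4 had an array set apart from the others by a gap beyond Dixon's critical value, and chance alone gives about 1 such group in 20. The first probe of Wnt3 had a ratio of -0.036 on array 1 at 4/5 somites. The other 3 were dim values: the null level of Wnt5a at 7/8 somites was 7.23 on array 1, the null level of the first Rspo3 probe at 4/5 somites was 6.88 on array 4, and the wild type level of the second Rspo3 probe at 4/5 somites was 6.89 on array 3.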

How the results depend on the processing

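The count of called member probes was 4 and that of all probes 1794. With no background correction the counts were 2 and 345, with median centring in place of loess 0 and 0 (5 and 3662 at an unadjusted p under 0.05, of which 77.1% were higher in null), and with no filter on dim probes 2 and 646. The scanner's processed signals and the authors' series matrix each called 8 member probes, the brightest probe per gene 2 (it tests 1 probe a gene), and the arrays with the null pool in Cy3 alone 2. All probes called numbered 812 with uneven backgrounds kept and 1046 with a trended, robust prior (87.4% higher). They numbered 3123 when the slide was a block over pair means. The spread of that fit is the stage difference on each slide, so the same pools enter it once per slide. Leaving out each array gave 3 to 4 member probes and 1024 to 1916 of all probes, lowest without array 2 of 4/5 somites. No called value was reversed. Where no cause is named, the cause was not tested. The call of the first Wnt5b probe was lost in 4 of 22 settings, of the first Wnt6 probe in 1 of 22 and of the second in 2 of 21, with adjusted p up to 0.16, 0.104 and 0.103. No paired analysis was possible because the pools of a stage are already paired on each array and the stages share no embryos. Dim signals limit Wnt5a, Rspo3 and the second Wnt3 probe. Whether the first Wnt3 probe and Wnt11 were called depended on the setting.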
